A study of Homo sapiens with 6 samples.

Results

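The NRF2 antioxidant system was examined in RNA sequencing libraries labelled as Hep3B, a human hepatocellular carcinoma line, in 9 genes chosen by name: the transcription factor gene NFE2L2, its inhibitor KEAP1, and the targets NQO1, HMOX1, GCLC, GCLM, TXNRD1, SRXN1 and TXN. They are 9 of the 27009 genes in the expression table, and all 9 were found and tested. All libraries came from cells whose endogenous PD-L1 had been knocked out. In the vector group (3 libraries) the cells carried an empty vector, and in the nPD-L1 group (3 libraries) they overexpressed nPD-L1, a PD-L1 made to accumulate in the nucleus. The comparison asks how gene expression differs once nPD-L1 is put back into cells without their own PD-L1. Whether each stable line was a clone, and whether the replicates were separate cultures, is not given in the sources used here, so p values measure only the spread between these libraries.

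NRF2, the protein product of NFE2L2, is a transcription factor held at low levels by KEAP1, an adaptor that hands it to a CUL3 ubiquitin ligase. When oxidants or electrophiles modify KEAP1, NRF2 accumulates, pairs with a small MAF protein (MAFF, MAFG or MAFK) and binds antioxidant response elements near genes of glutathione synthesis, thioredoxin cycling, NADPH supply, quinone reduction and haem breakdown. BACH1 competes for the same elements and is a strong repressor of HMOX1. Since KEAP1 acts on the NRF2 protein, the mRNA of NFE2L2 does not by itself report the activity of NRF2, and liver cancers are among the tumors in which this pathway is often switched on by mutation.

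The element is shown here because it is the sequence that the named targets are known for. Promoter windows of RefSeq (GRCh38.p14), which run from 250 bases before to 50 bases after a gene start, were searched on both strands for TGACNNNGC, the core of the antioxidant response element. Windows were at hand for 8 of the 9 members, 11 windows in all, and the window of HMOX1 was not analysed here. Matches were found in 4 windows of 3 members, GCLM, TXNRD1 and KEAP1, whereas 13.3% of 35116 windows of all genes hold this motif, and none of the matches overlapped the AP-1 type motif TGANTCA, held by 7.71% of all windows. Each match is printed with 10 flanking bases on both sides, on the strand that reads the motif, with the motif in capitals.
GCLM, chr1:93909446-93909474, on the strand opposite to the gene: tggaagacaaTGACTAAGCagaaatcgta
TXNRD1, upstream start, chr12:104215670-104215698, on the strand of the gene: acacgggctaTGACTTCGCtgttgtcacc
TXNRD1, upstream start, chr12:104215761-104215789, on the strand opposite to the gene: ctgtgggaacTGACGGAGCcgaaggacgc
TXNRD1, downstream start, chr12:104286920-104286948, on the strand opposite to the gene: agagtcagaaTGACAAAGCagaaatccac
KEAP1, downstream start, chr19:10502807-10502835, on the strand of the gene: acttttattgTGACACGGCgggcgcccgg
KEAP1, downstream start, chr19:10502784-10502812, on the strand opposite to the gene: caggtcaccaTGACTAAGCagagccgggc
The 9-base core of the GCLM match, TGACTAAGC, recurs in KEAP1, 31 to 23 bases before its downstream start, and lies 34 to 26 bases before the start of GCLM. A match of letters is not evidence of binding, and elements outside these windows were not searched.

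Values are reads on a gene after division by the size factor of its library, called scaled reads below. In 4 libraries the reads could be recovered, and these held 17427519 to 22253295 reads on genes, so that at the members' levels the spread between libraries, not counting error, sets the precision. Mitochondrial transcripts took 4.59% to 5.85% of each library. CD274, the PD-L1 gene, had 28.3, 38.4 and 47.8 scaled reads with vector, while the nPD-L1-labelled libraries had 16.8, 19.2 and 30.9 (log2 fold change −0.76, adjusted p = 0.338 from limma), so its reads do not show the overexpression in the label, and directions below follow the labels. The hepatocyte markers were mixed. Of 10 listed, 8 were analysed here, without AFP and GPC3. ALB, APOA1, APOB, TTR and TF had at most 3 scaled reads in every library, while FGB had 962 to 1540 and SERPINA1 7.91 to 41.4. HNF4A, a hepatocyte transcription factor, rose from 19.2, 11.3 and 6.24 to 51.3, 51.6 and 33.8 (adjusted p = 0.0232 from limma). Summed leukocyte markers stayed at or under 18.1 and summed endothelial markers at or under 6.06 scaled reads in every library.

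Within each group, the same library was the highest for most members. Vector replicate 2 was the highest vector library for 8 of the 9 members (all but SRXN1), against 40.9% of all genes tested. It was also the highest for 76.7% of the 86 tested genes of the wider NRF2 list described below, and the lowest for 41.4% of all genes tested. Vector replicate 3 was the lowest for 9 of 9 members, against 35.4% of all genes. Among the nPD-L1 libraries, replicate 2 was the highest for 8 of 9 members (all but NFE2L2), against 31.9% of all genes. The median member was 0.32 higher on the log2 scale in vector replicate 2 than in the mean of the other vector libraries, with the largest differences in NQO1 (0.77) and TXN (0.68). Transcript length moved with the same library: the median log2 difference of that library from the other vector libraries was 0.20 in the shortest genes (up to 3379 bases) and −0.17 in the longest (from 6210 bases), and the part of length in the members' spread was not tested. Members are between 1142 bases (TXN) and 8646 bases (GCLC) long. From the shortest to the longest member, the log2 differences of vector replicate 2 were 0.68 (TXN), 0.35 (HMOX1), −0.11 (SRXN1), 0.77 (NQO1), 0.22 (KEAP1), 0.30 (GCLM), 0.15 (NFE2L2), 0.32 (TXNRD1) and 0.42 (GCLC).

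**Figure D1:**
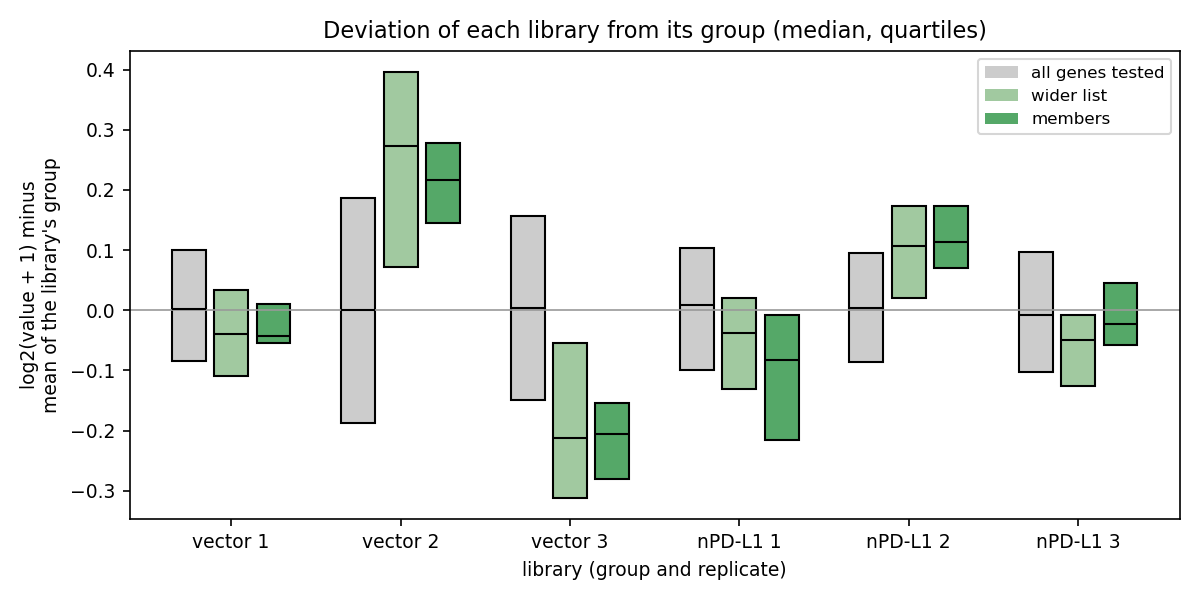
Deviation of each library from the mean of its own group, as log2(value + 1), for all 15076 genes tested, the 86 tested genes of the wider NRF2 list and the 9 members; boxes run from the lower to the upper quartile and the line is the median. The members' median lies at 0.22 in vector replicate 2, at −0.21 in vector replicate 3 and at 0.11 in nPD-L1 replicate 2, while the median of all genes stays near 0 in each library.

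Of the 9 members, only HMOX1 passed the test: it rose, and none fell. That is 11.1% of the members, where 4.04% of the 15076 genes tested rose and 0.922% fell (4.96% in all) at an adjusted p under 0.05 from limma on log2(value + 1). In 2 members, HMOX1 and SRXN1, all nPD-L1 libraries lay above all vector libraries, against 12% of all genes tested, and in the other 7 the groups overlapped. In no member did all nPD-L1 libraries lie below the vector libraries, which 8.54% of all genes did. The median log2 fold change of the members was −0.0027, beside −0.019 for all genes tested, with a range from −0.16 (TXN) to 0.88 (HMOX1). In bulk RNA, a change in the share of cells that express a gene and a change in the RNA per cell cannot be told apart.

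**Figure D2:**
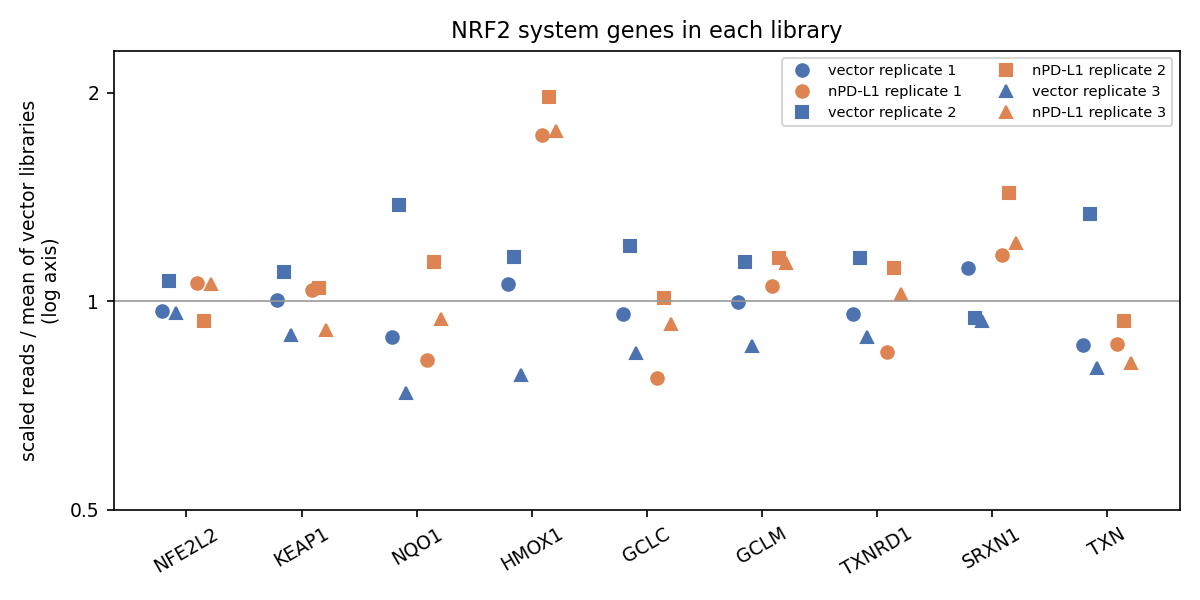
Scaled reads of each member in each library, divided by the mean of the 3 vector libraries (log axis); blue points are vector and orange points nPD-L1 libraries, and the shapes give the replicate number. HMOX1 stands at 973, 1102 and 986 scaled reads in the nPD-L1 libraries, above all vector libraries (438 to 648), and vector replicate 2 (blue squares) is the highest vector library in 8 members.

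Neither regulator passed the test. NFE2L2, the gene of NRF2 (ENSG00000116044, chr2:177227595-177392697, minus strand, GRCh38), had 3035, 3350 and 3007 scaled reads with vector and 3324, 2935 and 3315 with nPD-L1. The groups overlapped, with the lowest value of all in nPD-L1 replicate 2. The log2 difference was 0.027 (standard error, SE, 0.099, limma adjusted p = 0.929), with a 95% interval from 0.875-fold to 1.19-fold. NFE2L2 shares 20.9% of its exon bases with other genes, so reads there cannot be assigned with certainty. Of its 5979 exon bases, 1054 are shared with AC019080.1 on the same strand, 190 with the antisense gene AC079305.1 and 54 with AGPS, also on the other strand, which the library kit does not mark. AC019080.1 had 20.2, 7.91 and 26.0 scaled reads with vector and 33.6, 22.3 and 36.7 with nPD-L1, and AC079305.1 had 3.39 to 12.1 in all libraries. AGPS was far higher, with 1884, 1883 and 2179 scaled reads with vector and 2470, 2356 and 2535 with nPD-L1. Its log2 fold change was 0.31 (limma adjusted p = 0.137).

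KEAP1, the sensor that targets NRF2 for degradation (ENSG00000079999, chr19:10486120-10503741, minus strand), had 2632, 2889 and 2348 scaled reads in vector and 2720, 2739 and 2383 in nPD-L1 libraries. The lowest and the highest value both belonged to the vector group. The estimate for its log2 fold change was −0.0027 (SE 0.11, limma adjusted p = 0.994), with a 95% interval from 0.843-fold to 1.18-fold. Within each library, the log2 ratio of NFE2L2 to KEAP1 was 0.26 ± 0.085 (SD, n = 3) in vector and 0.29 ± 0.19 (SD, n = 3) in nPD-L1 libraries (two-sided exact permutation test, p = 0.8, adjusted p = 0.8 over 6 gene pairs). For the ratio of NFE2L2 to its competitor BACH1 the means were 1.83 ± 0.15 and 1.58 ± 0.22 (SD, n = 3), a difference of −0.26 (exact permutation p = 0.3, adjusted p = 0.45). With 3 libraries against 3, such a test cannot go below 0.1. Gene ratios here and below use scaled reads not divided by length. Only their difference between groups can be read, not which gene is higher.

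HMOX1, which encodes haem oxygenase 1, the inducible enzyme that breaks haem down to biliverdin, iron and carbon monoxide (ENSG00000100292, chr22:35380361-35394214, plus strand), was the member that changed. It had 592, 648 and 438 scaled reads with vector and 973, 1102 and 986 in the nPD-L1-labelled libraries. Even the lowest nPD-L1 library was above the highest vector library, and the nPD-L1 values lay closer to each other than the vector values. Over all genes tested, the median SD of log2 values was likewise smaller in nPD-L1 (0.146) than in vector libraries (0.211). The means were 559 ± 109 and 1020.5 ± 71.3 (SD, n = 3), a log2 fold change of 0.88 (SE 0.15, limma adjusted p = 0.00486), that is 1.84-fold with a 95% interval from 1.47-fold to 2.31-fold. No exon base of HMOX1 is shared with another annotated gene. It passed in all 6 fits with a library left out (log2 fold change 0.72 without vector replicate 3 to 0.999 without vector replicate 2). On the 4 libraries with recovered reads it fell just short in limma (adjusted p = 0.0637) and edgeR (adjusted p = 0.0645) and passed in DESeq2 (adjusted p = 0.0230).

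A single marker of another cell type rose along with HMOX1. Of 3 fibroblast markers analysed here, COL1A1, a collagen gene, rose from 82.8, 63.2 and 49.9 scaled reads with vector to 465, 445 and 487 in the nPD-L1 libraries (log2 fold change 2.84, limma adjusted p = 7.99e-06). DCN stayed at or under 5.04 and PDGFRB at or under 8.31 in every library, both below the filter, and the list summed to 59.2 to 84.8 in vector and 452 to 494 in nPD-L1 libraries, most of it COL1A1. Its part in the result for HMOX1 was not tested.

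NQO1, the quinone reductase commonly read as the reporter of NRF2 activity (ENSG00000181019, chr16:69706996-69726951, minus strand), showed no difference that passed the test. It had 24802, 38418 and 20550 scaled reads in vector and 22947, 31786 and 26354 in nPD-L1 libraries. Replicate 2 was highest in both groups, and the vector libraries spanned the nPD-L1 libraries, 1.87-fold from the lowest to the highest. In log2 terms, the fold change came to −0.0089 (SE 0.21, limma adjusted p = 0.990), with a wide 95% interval from 0.720-fold to 1.37-fold. Without vector replicate 2 it turned to 0.25 (adjusted p = 0.375 from limma), and it also turned without nPD-L1 replicate 1 (0.10) or replicate 3 (0.0029), so no direction could be assigned. NQO1 shares 17.7% of its exon bases with an overlapping gene on the other strand. The log2 ratio of HMOX1 to NQO1 within a library was −5.61 ± 0.26 in vector and −4.72 ± 0.15 in nPD-L1 libraries (SD, n = 3), a difference of 0.89 in which the groups did not overlap (exact permutation p = 0.1, the smallest this design allows, adjusted p = 0.3).

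GCLC and GCLM encode the catalytic and the modifier subunit of glutamate-cysteine ligase, the rate-limiting enzyme of glutathione synthesis. GCLC (ENSG00000001084, chr6:53497341-53616970, minus strand) had 8753, 10962 and 7698 scaled reads in vector and 7077, 9250 and 8476 in nPD-L1 libraries. The highest library was vector replicate 2 and the lowest nPD-L1 replicate 1, with the other values interleaved. The log2 fold change was estimated at −0.14 (SE 0.15, limma adjusted p = 0.735; 95% interval 0.724-fold to 1.14-fold), and 0.0016 without vector replicate 2. The promoter window of GCLM holds the first motif match printed above. GCLM (ENSG00000023909, chr1:93885205-93909456, minus strand) had 4324, 4934 and 3729 scaled reads in vector and 4549, 4992 and 4916 in nPD-L1 libraries. Vector replicate 2 lay inside the nPD-L1 range and the other vector libraries below it. The estimate for its log2 fold change was 0.16 (SE 0.12, limma adjusted p = 0.605; 95% interval 0.936-fold to 1.34-fold), and it ran from 0.060 without vector replicate 3 to 0.26 without vector replicate 2. The log2 ratio of the catalytic to the modifier subunit was 1.02, 1.15 and 1.05 with vector and 0.64, 0.89 and 0.79 with nPD-L1. All nPD-L1 ratios were below all vector ratios, a difference of −0.30 (exact permutation p = 0.1, the smallest possible, adjusted p = 0.3 over the 6 pairs), which did not pass the threshold.

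In the thioredoxin arm, no gene passed the test. TXNRD1, the cytosolic selenoenzyme that reduces thioredoxin with NADPH (ENSG00000198431, chr12:104215779-104350305, plus strand), had 48637, 58691 and 45156 scaled reads in vector and 42994, 56696 and 52065 in nPD-L1 libraries. The 2 groups spanned nearly the same range, with replicate 2 highest in both. In log2 terms, the fold change came to −0.0075 (SE 0.14, limma adjusted p = 0.987, 95% interval 0.798-fold to 1.24-fold). Both promoter windows of TXNRD1 hold a match to the motif. TXN, thioredoxin itself (ENSG00000136810, chr9:110243811-110256640, minus strand), had 11643, 17991 and 10814 scaled reads in vector and 11675, 12621 and 10971 in nPD-L1 libraries. Apart from vector replicate 2, all values lay between 10814 and 12621. Its log2 fold change of −0.16 (standard error 0.17, adjusted p = 0.735 from limma; 95% interval 0.684-fold to 1.17-fold) turned to 0.065 without that library (adjusted p = 0.815 from limma). The log2 ratio of TXN to TXNRD1, not divided by length, was −1.94 ± 0.21 in vector and −2.10 ± 0.19 in nPD-L1 libraries (SD, n = 3, exact permutation p = 0.4, adjusted p = 0.48).

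SRXN1, sulfiredoxin, which repairs over-oxidized peroxiredoxins (ENSG00000271303, chr20:646615-653370, minus strand), had 875, 740 and 733 scaled reads in vector and 912, 1121 and 951 in nPD-L1 libraries. As with HMOX1, every nPD-L1 library exceeded every vector library, but the gap between the nearest libraries (875 and 912) was small. It gave a log2 fold change of 0.34 (SE 0.12, limma adjusted p = 0.184; 95% interval 1.06-fold to 1.53-fold), so SRXN1 did not pass the test over all genes, and it did not pass under any of 18 alternatives. Of its exon bases, 85.0% are shared with a transcript on the same strand, AL121758.1, which itself had 3.39 to 15.2 scaled reads, so part of the reads of SRXN1 cannot be assigned with certainty.

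**Figure D3:**
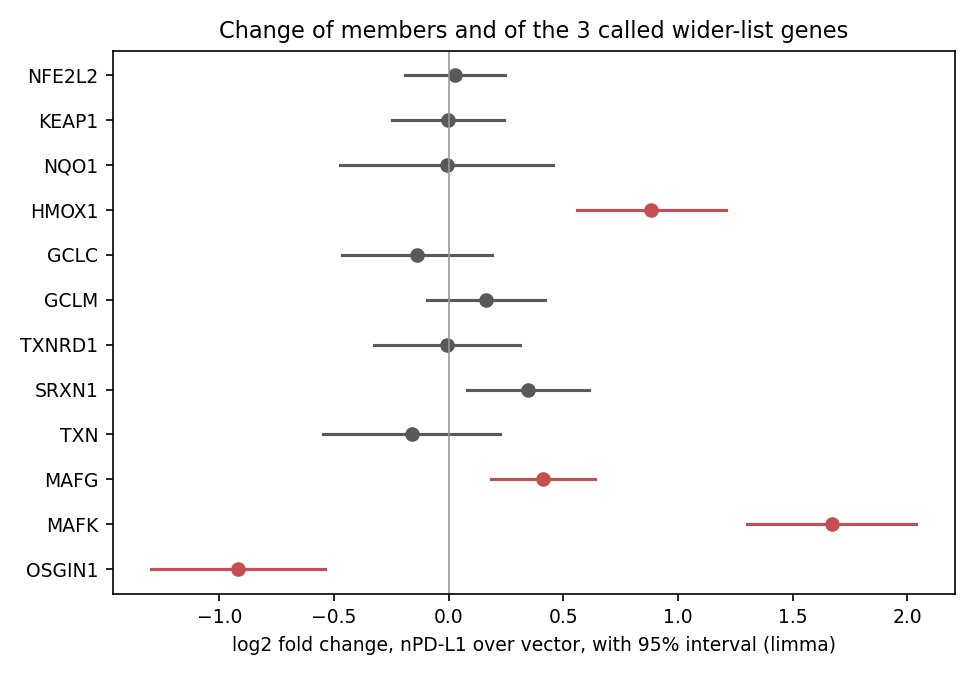
Log2 fold change of the nPD-L1 over the vector libraries with its 95% interval from limma, for the 9 members and the 3 genes of the wider list that passed the test; red marks an adjusted p under 0.05. HMOX1 (0.88), MAFG (0.41) and MAFK (1.67) lie above 0 and OSGIN1 (−0.92) below, and the intervals of 7 members include 0.

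Compared per length, the members fell into steps. TXN (11806 ± 3438 scaled reads per kilobase in vector and 10294 ± 725 in nPD-L1 libraries, SD, n = 3), NQO1 (8581 ± 2868 and 8306 ± 1370) and TXNRD1 (7577 ± 1048 and 7541 ± 1039) were the highest, at the 99.5 to 99.7 percentile of genes tested. TXN lay above NQO1 and TXNRD1 within each of the 6 libraries, although its libraries and those of NQO1 overlapped in range. The libraries of NQO1 and TXNRD1 overlapped too, and TXNRD1 was the higher of these in vector replicate 3. A clear step led to GCLC (1057 ± 193 and 956 ± 127), GCLM (799 ± 111 and 889 ± 43.7) and KEAP1 (697 ± 71.99 and 695 ± 53.3), in which neighbours overlapped again. NFE2L2 (524 ± 31.8 and 534 ± 37.1) lay below KEAP1 in every library. SRXN1 (290.03 ± 29.8 and 369 ± 41.1) and HMOX1 (233 ± 45.4 and 424 ± 29.6) were the lowest members, below NFE2L2 in every library, and still above 81.9% of the genes tested. SRXN1 was the higher of this last pair on average in vector libraries and HMOX1 in nPD-L1 libraries. Lengths here include exon bases shared with other genes: 85.0% for SRXN1, 20.9% for NFE2L2, 17.7% for NQO1 and 6.20% for GCLC. How reads on such bases were counted is not known. The levels per length of these genes, and above all the place of SRXN1, are therefore uncertain.

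**Figure D4:**
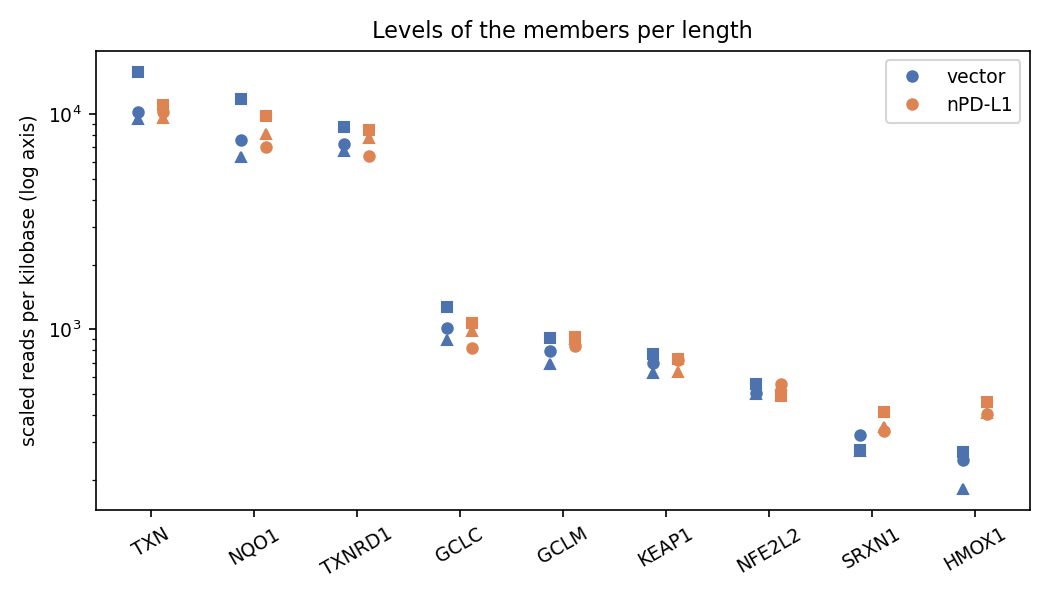
Scaled reads per kilobase of each member in each library (log axis), ordered by the mean over the 6 libraries; blue is vector and orange nPD-L1, with circles, squares and triangles for replicates 1, 2 and 3. TXN, NQO1 and TXNRD1 lie between 6315 and 15754, well above GCLC (818 to 1268), and SRXN1 and HMOX1 are lowest, the nPD-L1 libraries of HMOX1 (405 to 458) standing apart from its vector libraries (182 to 270). The place of SRXN1 is uncertain, since 85.0% of its exon bases are shared with another gene.

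The wider NRF2 and redox list held 91 further genes, of which 89 were analysed here and 86 were tested. Of these, 2 rose (2.33%) and 1 fell (1.16%), beside 4.04% and 0.922% of all genes tested, and the median log2 fold change was −0.043. All nPD-L1 libraries lay above all vector libraries in 5 of them (5.81%, beside 12% of all genes tested) and below in 5 (5.81%, beside 8.54%). Without adjustment, 9 had a p under 0.05, whereas 2146 of the 15076 genes tested did.

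Both genes that rose were small MAF genes, the partners of NRF2 and of BACH1 on the element. MAFK (ENSG00000198517, chr7:1530714-1543043, plus strand) had 1640, 1056 and 1754 scaled reads in vector and 4678, 4582 and 4579 in nPD-L1 libraries. The nPD-L1 libraries lay within 1.02-fold of each other and far above the vector libraries, of which replicate 2 was the lowest. The log2 fold change was estimated at 1.67 (SE 0.17, limma adjusted p = 0.000147), 3.18-fold, and it passed in all 18 alternatives. MAFG (ENSG00000197063, chr17:81918270-81927714, minus strand) had 2781, 2406 and 2424 scaled reads in vector and 3147, 3609 and 3358 in nPD-L1 libraries. It differed between the groups by a log2 fold change of 0.41 (SE 0.10, limma adjusted p = 0.0476). The groups did not overlap, but the call passed in 9 of 18 alternatives and in 1 of 6 fits with a library left out, with adjusted p values up to 0.277 among those 6, reached without nPD-L1 replicate 2. Of the 3 small MAF genes, MAFF gave a log2 fold change of −0.056 (739, 940 and 468 against 567, 743 and 685 scaled reads, adjusted p = 0.932).

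OSGIN1, an oxidative stress-induced growth inhibitor gene and a described NRF2 target (ENSG00000140961, chr16:83948282-83966332, plus strand), fell. It had 3777, 4341 and 2796 scaled reads in vector and 2004, 2179 and 1553 in nPD-L1 libraries. All nPD-L1 libraries were below all vector libraries, and replicate 3 was the lowest and replicate 2 the highest in both groups. In log2 terms, the fold change came to −0.92 (SE 0.17, limma adjusted p = 0.00938). The call was lost without vector replicate 1 (adjusted p = 0.0629), nPD-L1 replicate 1 (0.0544) or nPD-L1 replicate 3 (0.0624), and in limma on the 4 libraries with recovered reads (0.0528), while the log2 fold change stayed between −1.10 and −0.78. HMOX1 and OSGIN1, both known as NRF2 targets, thus passed the test in opposite directions.

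The other 83 tested genes of the list did not pass. Among the remaining regulators, SQSTM1, the autophagy adaptor that binds KEAP1, was the most abundant (24794, 35235 and 19506 against 24205, 33067 and 26521 scaled reads, log2 fold change 0.11, adjusted p = 0.856). Its values followed the same order of libraries as NQO1. BACH1 gave a log2 fold change of 0.28 (902, 994 and 749 against 931, 1048 and 1242 scaled reads, adjusted p = 0.412), and the transcriptional coactivator CREBBP 0.37 (adjusted p = 0.328).

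For cystine import and glutathione recycling, none of 13 genes passed, and GPX1, a glutathione peroxidase, passed with a replicate block. SLC3A2, the heavy chain of the cystine importer, was the most abundant, with 16198, 18954 and 14257 scaled reads in vector and 15052, 16451 and 14385 in nPD-L1 libraries (log2 fold change −0.099, adjusted p = 0.774 from limma). Its light chain SLC7A11, a known NRF2 target, gave −0.11 (adjusted p = 0.721). GPX8 was the gene of this group with all nPD-L1 libraries (974 to 1012) below all vector libraries (1117 to 1227), at an adjusted p of 0.279.

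None of 14 tested genes of glutathione conjugation and export passed, with GSTP1 the most abundant (log2 fold change −0.19, adjusted p = 0.652 from limma, and −0.018 without vector replicate 2). The exporter ABCC1 came close, with 2700, 2183 and 2764 scaled reads in vector and 3560, 3320 and 3265 in nPD-L1 libraries (log2 fold change 0.41, adjusted p = 0.0688), and passed in 4 of 18 alternatives, among them the fits without vector replicate 2 or 3. In the thioredoxin and peroxiredoxin group, none of 12 tested genes passed, and the mitochondrial reductase TXNRD2 was closest (1154, 1083 and 1035 against 931, 720 and 762 scaled reads, log2 fold change −0.45, adjusted p = 0.0650), passing in 5 of 18 alternatives, among them the fits without vector replicate 2 or nPD-L1 replicate 1. The groups did not overlap in either gene, and the cytosolic paralog TXNRD1 showed no such separation. PRDX1, the most abundant peroxiredoxin, gave 0.033 (adjusted p = 0.938).

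The NADPH-supplying enzymes, 6 of 6 tested, did not pass and ranged from −0.090 (TALDO1) to 0.25 (ME1). For haem and iron, where HMOX1 acts, none of 8 other genes passed, with log2 fold changes from −0.35 to −0.027. The iron store genes FTH1 and FTL are known NRF2 targets; FTL, the most abundant, had 121302, 207463 and 98616 scaled reads in vector and 125348, 150118 and 115751 in nPD-L1 libraries (log2 fold change −0.063, adjusted p = 0.931, and 0.25 without vector replicate 2). The log2 ratio of FTH1 to FTL was −2.28 ± 0.051 in vector and −2.24 ± 0.047 in nPD-L1 libraries (SD, n = 3, exact permutation p = 0.2, adjusted p = 0.4). The biliverdin reductases BLVRA and BLVRB, which use the product of haem oxygenase, gave −0.054 and −0.18 (adjusted p = 0.910 and 0.736), and the constitutive haem oxygenase HMOX2 gave −0.14 (adjusted p = 0.724).

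In the detoxification group, 1 of 15 fell (OSGIN1). The aldo-keto reductases AKR1B10, AKR1C1, AKR1C2 and AKR1C3, which are strong NRF2 targets in human cells, spread widely between replicates, by 2.59-fold to 3.50-fold within the vector group, whereas AKR1B1 spread by 1.13-fold. AKR1B10, the most abundant of the group, had 21940.2, 41000 and 15848 scaled reads in vector and 20260, 32386 and 25095 in nPD-L1 libraries (log2 fold change 0.069, adjusted p = 0.944 from limma). AKR1C2 had 6116, 13643 and 3901 against 6611, 12499 and 9322, a 3.50-fold range within the vector group alone, and its log2 fold change of 0.41 had a standard error of 0.44 (adjusted p = 0.736). Paralogs of the AKR1C family are near-identical in sequence, so the split of reads among them is uncertain. Of the 3 superoxide and peroxide enzymes, SOD1 was the most abundant (log2 fold change −0.18, adjusted p = 0.645, and −0.0071 without vector replicate 2), and none passed.

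The genes whose values ran most like HMOX1 over the 6 libraries, by Pearson's r on log2(value + 1), were GRAMD1A (r = 0.996), PACSIN2 (0.995) and DAND5 (0.992, at only 2.86 scaled reads on average in vector and 11.5 in nPD-L1 libraries). Among the members, SRXN1 was most like HMOX1 (r = 0.853), followed by GCLM (0.804). Those points include the difference between groups. For NFE2L2 the closest genes were TMEM121 (r = 0.965), CCDC127 (0.964) and NOSTRIN (0.955), and the closest member was GCLM (0.403). NQO1, GCLC and TXNRD1, whose groups overlapped, ran closely together (r = 0.917 to 0.933 for the 3 pairs), whereas NQO1 and HMOX1 gave 0.313. Vector replicate 2 is among the 6 libraries behind each value, and none was tested.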

How the data were processed

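RNA from PD-L1-knockout cells labelled Hep3B was made into libraries with the NEBNext Ultra RNA kit, and the submitters' processing notes name CASAVA, HISAT2 (2.0.5) and hg38. The counter is not given in the sources used here. The authors deposited for each gene a signal, reads divided by a size factor of the library, in a table that calls it raw. The authors' deposited fold changes and p values were not used.

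Values were taken as log2(value + 1), so fold changes of low genes are understated. Genes with at least 10 in at least 3 libraries (15076 of 27009) were tested with limma 3.58.1 (R 4.3.3; eBayes with trend and robust moderation), with p values adjusted over all of them (Benjamini-Hochberg) and a threshold of 0.05. The median ratio to the geometric mean was 1.00 in all libraries, so no scaling was added. Gene pairs were compared by two-sided exact permutation tests (scipy 1.17.1) on log2 ratios of values not divided by gene length. A pair of TXN and TXNIP was left out, as TXNIP was below the filter.

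In every library 100% of values were whole multiples of a step (tolerance 0.01). The step was accepted as 1 read in 4 libraries, and edgeR 4.0.16 and DESeq2 1.42.0 were run on these as alternatives. In vector replicate 1 and nPD-L1 replicate 2 the step (1.01 in both) lay too close to 1 for the rule used, so these were left out. The limma step was tested on simulated data. Exon overlaps came from GENCODE 29 on GRCh38, whose coordinates match those of all 9 members.

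The members and the lists were chosen with earlier results of these data known. Named are all members, CD274, every called gene of the wider list, its most abundant uncalled gene per role, and the genes most like HMOX1 and NFE2L2. The result for 1 gene under this rule is not reported here. Other genes were named after their values were seen.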

Additional observations from a re-analysis of the deposited data

How the results depend on the processing

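HMOX1 was called in 16 of 18 alternatives. No member was called (0 of 9) in limma or edgeR on 4 libraries; in the other 16 the count was 1. The wider count, 3 as reported, was 5 with no filter (ABCC1 and TXNRD2 added), 1 in limma on 4 libraries and 1 to 5 with a library left out (1 without vector replicate 1 or nPD-L1 replicate 3, 5 without vector replicate 2). With upper-quartile factors it was 1 higher and 2 lower in place of 2 and 1, since MAFG was lost and TXNRD2 gained. Over all genes, 748 as reported, calls numbered 408 to 1033 with a library left out, and 281, 288 and 394 in limma, edgeR and DESeq2 on 4 libraries, which hold fewer samples.

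Whether replicate numbers pair the samples could not be settled, and the main fit used no pairing. Deviations of same-numbered libraries correlated at −0.013, 0.229 and 0.131. Each sample of numbers 2 and 3 was most like its own number, whereas those of number 1 were not. With the replicate number as a block, 1 member, 6 wider genes (with ABCC1, GPX1 and TXNRD2 added) and 1185 genes of all tested were called. Without the block, 748 of all genes tested were called. The standard error fell from 0.21 to 0.13 for NQO1 and from 0.17 to 0.091 for OSGIN1, but stayed near 0.099 for NFE2L2.

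Directions turned in log2 fold changes near 0 that were never called: KEAP1 (0.0073), NQO1 (0.0011) and TXNRD1 (0.0025) with TMM factors, and in limma, edgeR and DESeq2 on 4 libraries SQSTM1 (−0.049, −0.10 and −0.11), PRDX1 (−0.047, −0.061 and −0.066) and AKR1B10 (−0.18, −0.32 and −0.32). With a library left out, the ranges that crossed 0 were −0.0035 to 0.086 (NFE2L2), −0.080 to 0.070 (KEAP1), −0.20 to 0.25 (NQO1), −0.25 to 0.0016 (GCLC), −0.094 to 0.11 (TXNRD1), −0.30 to 0.065 (TXN), −0.094 to 0.33 (SQSTM1), −0.20 to 0.0071 (SLC3A2), −0.071 to 0.18 (PRDX1), −0.29 to 0.25 (FTL) and −0.24 to 0.45 (AKR1B10). The cause of the other changes was not tested.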
